A study of Mus musculus with 188 samples.

Results

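Ftl1, Fth1 and Tfrc, the genes of the ferritin light chain, the ferritin heavy chain and the transferrin receptor, were followed across single keratinocytes of mouse tail epidermis, 94 on plate 1 and 94 on plate 2. They were chosen by symbol, as the rows whose identifiers map to those names, and are 3 of 49585 gene rows. On GRCm38, Ftl1 (ENSMUSG00000050708) lies at chr7:45457944-45459884 on the minus strand, Fth1 (ENSMUSG00000024661) at chr19:9980598-9985098 on the plus strand and Tfrc (ENSMUSG00000022797) at chr16:32608920-32632794 on the plus strand. The cells came from Lrig1-CreERT2/RosaYFP animals at postnatal day 20 and were sorted as Cd34-/Itga6+/YFP-, a gate that seeks basal cells of the interfollicular epidermis. The strain carries the Cre recombinase CreERT2 under Lrig1 and a yellow fluorescent protein reporter, and the sort kept cells without that protein. The labels used here name no induction of the recombinase, so lack of the protein is not read as lack of Lrig1. A library holds the RNA of 1 cell, and the labels put every cell into 1 group. The animals are not named, so the cells count as 1 sample and every value below is a spread over cells, with no test.

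Ferritin is a hollow protein shell built of heavy and light chains. The heavy chain oxidises iron as it enters the shell, and the light chain helps the iron core to form. The transferrin receptor sits on the cell surface and brings in iron that is bound to transferrin. When iron is scarce, iron regulatory proteins hold on to hairpins in these messengers, which blocks translation of the ferritin chains and protects the messenger of the receptor from decay. Read counts see the second of these effects and not the first. Dividing cells need iron for DNA synthesis, and keratinocytes that leave the basal layer replace keratins 5 and 14 by keratins 1 and 10, so the axes examined were Krt10 and the cell cycle.

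The hairpins are shown because they are the feature through which the 3 messengers are known to be controlled together. They were found in GENCODE M21 transcripts on GRCm38 by searching the transcript's own strand for a C, 5 bases, the loop CAGTGN and 5 bases that pair with those before the loop, with G-T pairs allowed. Each is written 5′ to 3′ with the loop in capitals. The Ftl1 hairpin lies in the 5′ UTR at chr7:45459778-45459807 on the minus strand and that of Fth1 in the 5′ UTR at chr19:9982732-9982761 on the plus strand. The 4 hairpins that the search found in Tfrc lie in its 3′ UTR on the plus strand. They are at chr16:32631219-32631248, chr16:32631598-32631627, chr16:32631663-32631692 and chr16:32631710-32631739. A hairpin that departs from the pattern would be missed.
Ftl1 hairpin 1: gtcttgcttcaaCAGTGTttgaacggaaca
Fth1 hairpin 1: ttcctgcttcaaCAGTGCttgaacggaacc
Tfrc hairpin 1: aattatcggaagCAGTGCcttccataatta
Tfrc hairpin 2: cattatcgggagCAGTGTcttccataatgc
Tfrc hairpin 3: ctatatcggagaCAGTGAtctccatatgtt
Tfrc hairpin 4: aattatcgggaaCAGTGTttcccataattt

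The pattern was rare among transcripts. Of 21182 protein-coding transcripts, 21 (0.0991%) held it in their first 250 bases, and besides Ftl1 and Fth1 these included Slc40a1 and Alas2, the genes of the iron exporter and of the erythroid enzyme that begins heme synthesis. Of 9603 transcripts of sufficient length, 1.05% held the pattern at least once in their last 2500 bases, and 1 transcript (0.0104%), that of Tfrc, held it 4 times. A match describes the letters of the transcript and does not show binding.

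How well a read can be placed differed between the genes. A window of 50 bases, slid along the annotated transcript, matched no other gene at 86 of 919 starts for Ftl1 (9.36%), at 822 of 880 starts for Fth1 (93.4%) and at all 4841 starts for Tfrc. The Ftl1 windows fell into 2 stretches, starting at positions 672 to 714 and 775 to 817 of the transcript. Another 15 genes elsewhere in the genome shared Ftl1 windows, processed pseudogenes and miRNA genes among them, and 2 annotated genes overlapped Ftl1 itself. Ftl1-ps1, which the annotation lists as protein coding on chromosome 13, shared 675 of the 919 windows and had 0 reads. Windows of 100 bases left 21.4% of the 869 starts of Ftl1 unshared. How reads with several matches were treated is not given in the sources used here, so the level of Ftl1 cannot be set against that of Fth1, while its variation between cells can be followed.

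**Figure D1:**
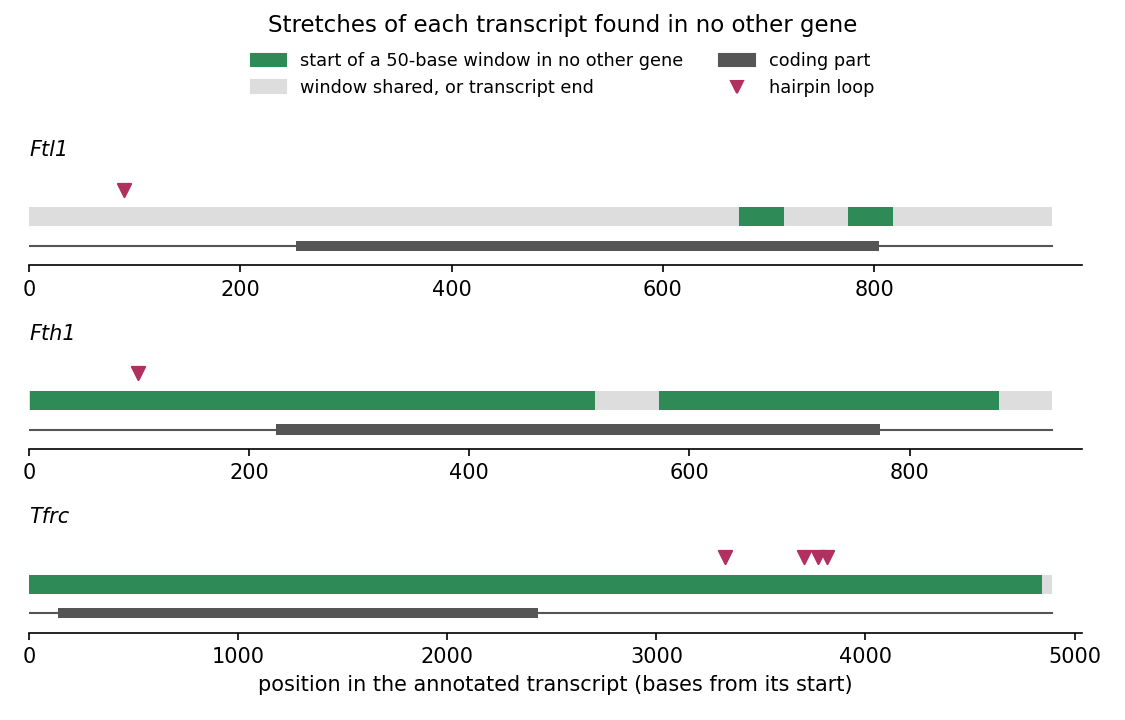
Each panel is the annotated transcript of a gene, with position in bases on the x axis. Green marks the starts of 50-base windows found in no other gene, dark grey the coding part and triangles the hairpin loops. Ftl1 has 86 such starts of 919, Fth1 822 of 880 and Tfrc all 4841.

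Reads assigned to ferritin pseudogenes were few. Of the 15 genes elsewhere that share windows with Ftl1, 14 were matched to a row here, and these held 49 reads (0.807% of their reads and those of Ftl1 together), and Gm6977 with 5 rows named as heavy chain pseudogenes held 409 (0.324%). Together these 20 rows held 458 reads beside 131906 reads of the 2 parent genes, a share of 0.346%. Gm6977 on chromosome X, which shares 58 windows with Fth1, had 389 of the reads, in 87 cells and at 5.03 CPM in the pool of all cells, where CPM are reads of a gene per 1000000 gene reads, with spike-ins left out. It was the only such row to reach 1 CPM. The heavy chain-like genes Fthl17a to Fthl17f and the mitochondrial ferritin gene Ftmt had 0 reads.

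Heavy chain reads stood at 177.4 CPM or more in every cell, while the light chain row and the receptor spread widely. Levels in a cell are CPM over that cell's own gene reads. Fth1 had 177.4 CPM in the lowest cell, a median of 1595 and 5585 in the highest, and averaged 1748 ± 788 CPM on plate 1 and 1564 ± 623 on plate 2 (SD, n = 94 cells each). Ftl1 had 0 CPM in the lowest cells, a median of 61.4 and 408 in the highest, and averaged 81.8 ± 83.6 CPM on plate 1 and 83.9 ± 80.8 on plate 2 (SD, n = 94 each). Tfrc had 2.13 CPM in the lowest cell, a median of 140.2 and 1284 in the highest, and averaged 176.9 ± 191 CPM on plate 1 and 211 ± 189 on plate 2 (SD, n = 94 each). Every cell held Fth1 reads, and 4 cells held no Ftl1 read. Some reads may have come from other wells, as estimated below. Fth1 exceeded 3 times the level expected from such reads in 89.4% of cells, so its abundance in every cell is not shown. Within each plate the SD over cells exceeded the difference between the plate means for each gene.

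The median cell had 540.5 reads of Fth1, 49.5 of Tfrc and 19.5 of Ftl1, so a Ftl1 value rests on the fewest reads. Fth1 reached 10 CPM in every cell and Tfrc in 92 cells of plate 1 and 90 of plate 2, 96.8% of all (exact Clopper-Pearson 95% interval 93.2% to 98.8%). Ftl1 reached it in 78 cells of plate 1 and 74 of plate 2, 80.9% of all (74.5% to 86.2%). These intervals treat the cells as independent draws and leave out any difference between animals.

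**Figure D2:**
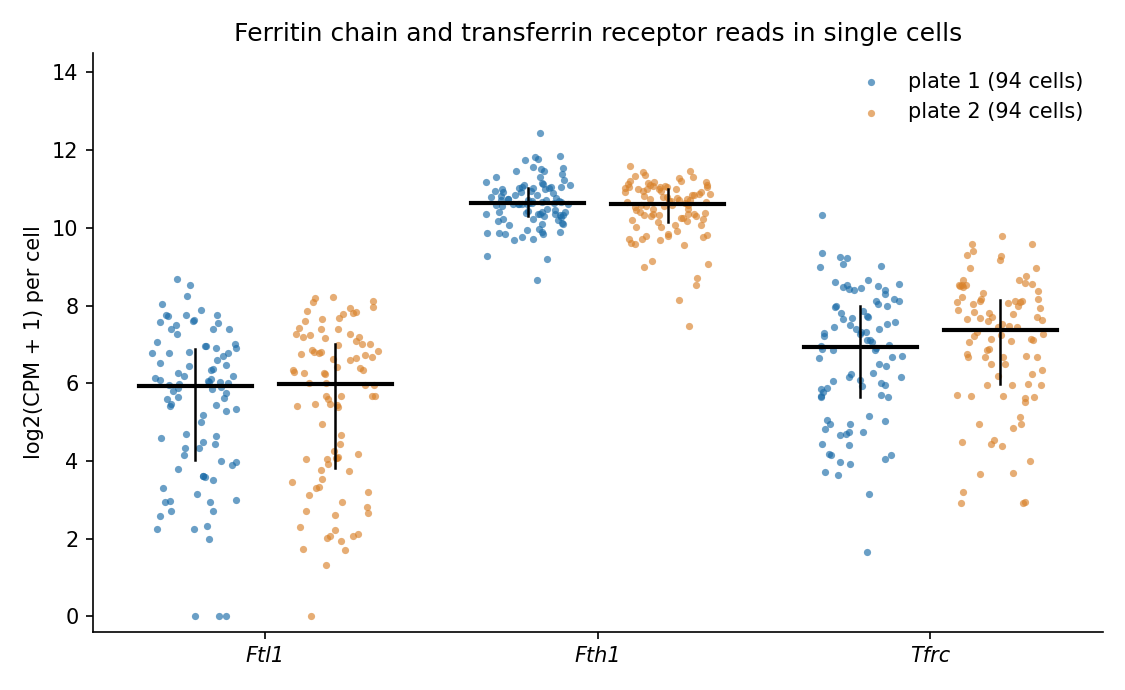
Each point is 1 cell, with log2(CPM + 1) on the y axis and the 2 plates side by side. The thick line is the median and the thin line the middle 50% of cells. Fth1 lies around its median of 1595 CPM, Ftl1 spreads between 0 and 408 CPM and Tfrc between 2.13 and 1284 CPM.

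Per 1000 bases of transcript, the mean levels were 1782 CPM for Fth1, 85.6 CPM for Ftl1 and 39.7 CPM for Tfrc. Divided by unshared window starts instead, the mean levels were 2014 CPM per 1000 starts for Fth1, 963 CPM for Ftl1 and 40.1 CPM for Tfrc. Tfrc lay below Fth1 on either scale. The value of Ftl1 lay between those of Fth1 and Tfrc on either scale, but its size depended on the divisor. How its reads with several matches were treated is not given, so no conclusion is drawn from its place.

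Depth was 79868 to 1093805 gene counts a cell (median 369991), with 5821 to 8720 genes with a read and spike-ins at 0.247% to 5.70% of counts. The basal keratinocyte list summed to 64301 CPM in the pool of all cells, against 1.29 CPM for the erythroid list, 1.02 CPM for macrophage and Langerhans cell genes, 10.8 for melanocyte genes, 24.9 for fibroblast genes, 2.24 for endothelial genes, 0.0129 for T cell genes and 0.0646 for bulge genes. Some genes had nearly all their reads in a single well and a few in the other wells. The reads reaching other wells were estimated from genes with at least 70% of their reads in 1 well. Per 10000 reads, 31.2 reached each well of the same lettered row on either plate. Each well of the same column on the same plate received 15.4, and each other well of either plate 2.72. The plates were thus not treated as separate in these rates. These rates put 4.39% to 70.4% of a cell's counts as carried over, with a median of 13.4% and 21 cells over 25%. True low expression of those genes in other wells, at up to 5% of the main well's count, was taken as carry-over. The rates may therefore be too high. Above 3 times the level expected from carry-over were Fth1 in 89.4% of cells, Tfrc in 64.9% and Ftl1 in 60.6%.

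Relative to a cell's gene reads, both ferritin chains were lower in cells with high Krt10, which encodes keratin 10 of the layers above the basal layer, and Tfrc had a rho near 0. Spearman's rho with Krt10 over all cells was -0.435 for Ftl1 (-0.390 on plate 1, -0.494 on plate 2) and -0.370 for Fth1 (-0.284 and -0.454). For Tfrc it was 0.0357 (0.156 and -0.108). Pearson's r on log2(CPM + 1) was -0.508, -0.495 and 0.0227 in the same order of genes. The cells share their pool and their totals, so these are descriptions of the cells at hand.

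The size rule asked that rho reach 0.3 in either direction, with the same sign, on each plate. Of 9344 genes examined, 44 (0.471%) met it on the low side, Ftl1 among them, and 59 (0.631%) on the high side. Ftl1 no longer met it on the spike-in scale (-0.294 on plate 1, -0.438 on plate 2) or without the cells highest in Krt10 (-0.177 and -0.124). Fth1 missed it through plate 1 in CPM, but met it with expected carried-over reads subtracted (-0.326 and -0.509) and without the 21 cells over 25% carry-over (-0.320 and -0.442). Tfrc did not meet it under any setting tried. Only 22 genes had a lower rho over all cells than Ftl1 and 46 a lower one than Fth1, whereas 6160 lay below Tfrc.

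Sorted by Krt10 into 5 quintiles of 37 or 38 cells, from low to high, the cells had median Krt10 levels of 405, 636, 890, 1828 and 20456 CPM. Median Ftl1 was 107.6, 83.8, 74.3, 61.3 and 8.90 CPM in the same order. Median Fth1 was 1820, 1591, 1790, 1587 and 1068 CPM. Median Tfrc was 148.3, 100.3, 161.8, 179.2 and 137.99 CPM. The largest step in both chains lay between the fourth and the fifth group. Tfrc was also lower in the fifth group than in the fourth, and its medians went up and down over the groups.

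In the quintile with most Krt10, 1 of 37 cells exceeded the overall median of Ftl1, against 27 of 38 cells in the quintile with least. For Fth1 the counts were 7 of 37 cells, against 26 of 38. For Tfrc they were 18 of 37 cells, against 19 of 38. The ratio of the medians of the highest to the lowest quintile was 0.0827 for Ftl1, 0.587 for Fth1 and 0.931 for Tfrc. In CPM the ratio of Tfrc was 2.04 on plate 1 and 0.547 on plate 2, so its direction differed between the plates. Over all cells it was 2.26 on the spike-in scale (4.08 on plate 1, 0.955 on plate 2). With expected carried-over reads subtracted it was 2.73 (1.52 and 0.603). Its direction over all cells thus also depended on the processing. Plate 1 gave 24 of the 38 cells in the lowest quintile and 13 of the 37 in the highest. The groups overlapped for each gene: Ftl1 ranged from 1.52 to 167.8 CPM in the highest quintile and from 0 to 303 CPM in the lowest.

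The low Ftl1 values stood at the level of carried-over reads. In the highest Krt10 quintile the median carry-over expected for Ftl1 was 10.3 CPM, beside the observed 8.90 CPM and 218 reads in all. In the lowest quintile it was 7.32 CPM, beside 107.6 CPM and 2319 reads. For Fth1 the expected carry-over was 201.3 CPM of 1068 CPM in the highest quintile and 145.8 CPM of 1820 CPM in the lowest. Median depth was 379668 counts in the highest quintile and 575216 in the lowest. With expected carried-over reads subtracted, median Ftl1 in the highest quintile was at 0, so no ratio is given, and that of Fth1 was 0.495 times the lowest quintile.

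**Figure D3:**
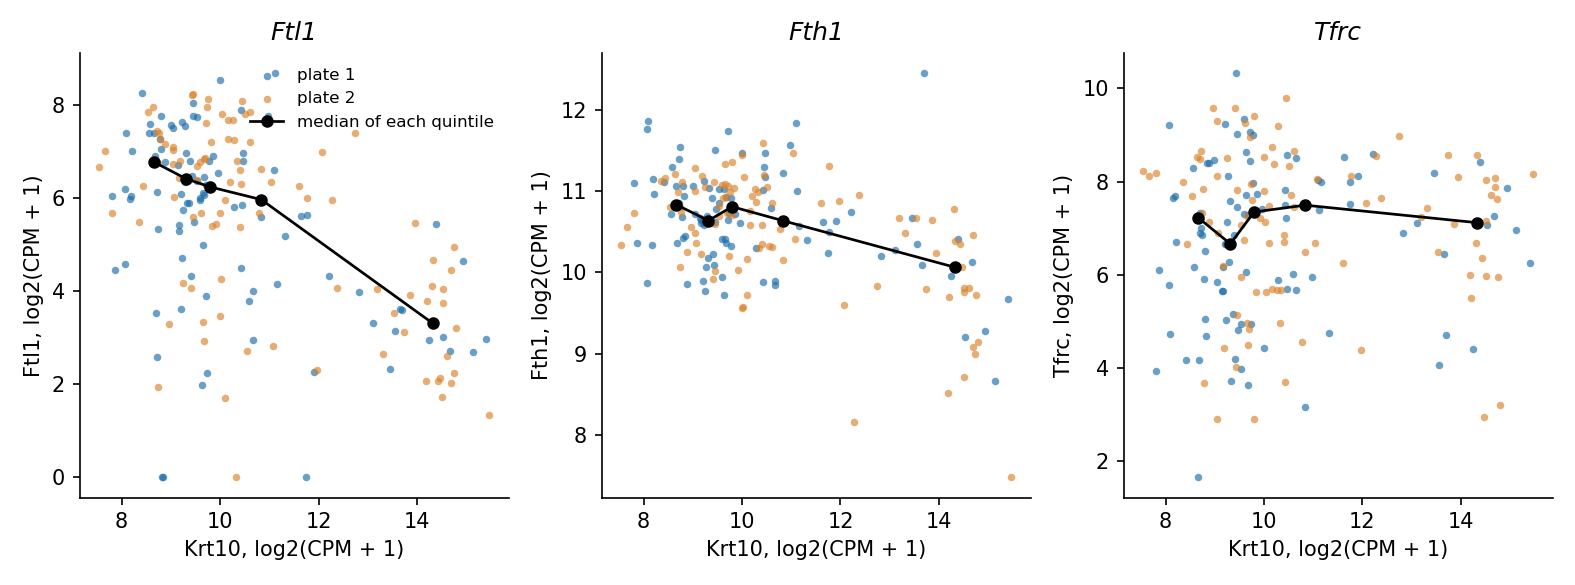
Each point is 1 cell, with Krt10 on the x axis and a member on the y axis, both as log2(CPM + 1). Black points join the medians of quintiles of cells sorted by Krt10. Median Ftl1 is 8.90 CPM in the last quintile, against 107.6 in the first, and Tfrc is 137.99 CPM, against 148.3.

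The relation of the ferritin chains with Krt10 rested mainly on that highest quintile, and for Fth1 on the scaling. Without those 37 cells rho was -0.138 for Ftl1 and -0.0828 for Fth1, a choice made after the data were seen. Krt10 itself exceeded 3 times its expected carry-over in 52 cells (27.7%), so most cells of the lower quintiles are ordered by values near that background. With counts scaled to the spike-in total in place of gene totals, rho was -0.345 for Ftl1 and -0.00158 for Fth1. On that scale the ratio of the highest to the lowest quintile was 0.161 for Ftl1 and 0.974 for Fth1, and the median spike-in share was 0.491% in the highest quintile and 0.605% in the lowest. Its part in the result for Fth1 was not tested beyond that scaling.

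In CPM, both chains went with the basal genes and against the early differentiation genes, which are themselves related to Krt10. With Krt14, the keratin of the basal layer, rho was 0.365 for Ftl1, 0.369 for Fth1 (0.285 on plate 1, 0.447 on plate 2) and -0.0141 for Tfrc. With the score of 11 early differentiation genes it was -0.460 for Ftl1, -0.409 for Fth1 and -0.0120 for Tfrc. That score includes Krt10, and its own rho with Krt10 was 0.826. With the score of 12 basal genes rho was 0.437 for Ftl1, 0.318 for Fth1 (0.200 on plate 1, 0.428 on plate 2) and -0.0332 for Tfrc. Krt10 itself had a rho of -0.520 with Krt14 and -0.617 with the basal score, so these relations are not independent of that with Krt10.

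Single cells at the extremes are given as examples, chosen after their values were seen. The cell with most Krt10 (plate 2, well A10, 45289 CPM) had the least Fth1 of all cells, 177.4 CPM. It had 1.52 CPM of Ftl1 (1 read) and 285 CPM of Tfrc. The cell with most Fth1 (plate 1, well E11, 5585 CPM) also lay in the highest Krt10 quintile at 13225 CPM of Krt10. It had 11.1 CPM of Ftl1 (4 reads) and 25.0 CPM of Tfrc. It held 6118 genes with a read and 3.86% spike-ins, and its G2/M score was the lowest of all cells. The median carry-over expected for Ftl1 in that quintile was 10.3 CPM. The cell with most Ftl1 (plate 1, well E6, 408 CPM) was among the shallowest, with 83356 counts and 56.9% expected carry-over. The cell with most Tfrc (plate 1, well E1, 1284 CPM) had 88.2 CPM of Ftl1, 1086 CPM of Fth1 and 689 CPM of Krt10.

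The ferritin chains varied together, and neither varied with the receptor beyond a small negative value for Fth1. Spearman's rho between Ftl1 and Fth1 was 0.425 (0.408 on plate 1, 0.428 on plate 2). It was 0.287 without the highest Krt10 quintile and 0.346 on the spike-in scale. Between Ftl1 and Tfrc rho was 0.0195 (-0.0613 and 0.121). Between Fth1 and Tfrc it was -0.164 (-0.246 and -0.0646), and 0.150 on the spike-in scale, the opposite sign. Sorted by Tfrc into quintiles, from 20.4 to 405 CPM of median Tfrc, cells had median Fth1 of 1943, 1635, 1374, 1510 and 1576 CPM and median Ftl1 of 58.3, 60.7, 61.01, 48.9 and 71.5 CPM.

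**Figure D4:**
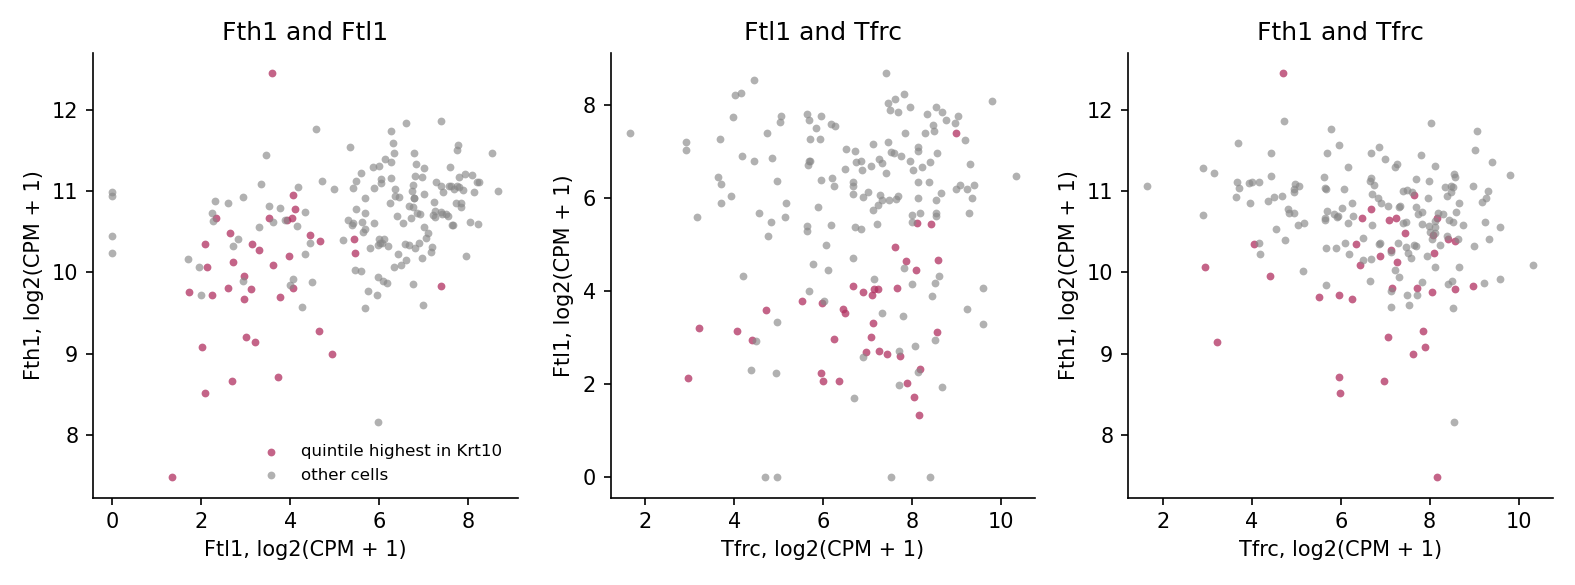
Each point is 1 cell, with 2 members plotted against each other as log2(CPM + 1). Cells of the quintile with most Krt10 are in dark red and other cells in grey. Spearman's rho is 0.425 for Fth1 with Ftl1, 0.0195 for Ftl1 with Tfrc and -0.164 for Fth1 with Tfrc.

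Relations with the cell cycle depended on the scaling. Relative to gene totals, no member reached the size rule on either score, and on the spike-in scale Fth1 reached it on both. In CPM, rho with the score of 43 S phase genes was 0.162 for Ftl1 (0.0452 on plate 1, 0.318 on plate 2), 0.143 for Fth1 (0.0237 and 0.282) and 0.0851 for Tfrc (0.108 and 0.0739). With the score of the G2/M genes it was 0.0463 for Ftl1 (-0.130 and 0.241), 0.0434 for Fth1 (-0.0948 and 0.170) and 0.0240 for Tfrc (0.132 and -0.0643). On the spike-in scale, rho of Fth1 with the S phase score was 0.454 on plate 1 and 0.465 on plate 2, and with the G2/M score 0.346 and 0.371. Ftl1 and Tfrc did not reach the rule on that scale. There the member and the genes of the score were divided by the same spike-in total. The share of all genes that met the rule on that scale is not given, so the call of Fth1 cannot be set against other genes. Among 9306 genes examined, 94 (1.01%) met it on the high side and 9 (0.0967%) on the low side with the S phase score, and 55 (0.591%) on the high side with the G2/M score, all in CPM.

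Krt10 and the S phase score were themselves related, at a rho of -0.353. Without the highest Krt10 quintile the S phase rho was -0.137 for Ftl1 and -0.0511 for Fth1. From the lowest to the highest S phase quintile, median Fth1 was 1585, 1419, 1544, 1688 and 1920 CPM and median Tfrc 94.8, 144.2, 186.99, 117.6 and 158.2 CPM. Over all cells on the spike-in scale the S phase rho of Fth1 was 0.449 and its G2/M rho 0.359, while those of Tfrc were 0.219 and 0.173.

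The most abundant cell cycle genes behaved unlike each other. With Nasp, a histone chaperone, rho was 0.201 for Tfrc (0.240 and 0.207), 0.132 for Fth1 and 0.0153 for Ftl1. With Mcm6 of the replicative helicase rho was 0.182 for Ftl1, 0.0619 for Fth1 and 0.0592 for Tfrc. With Pcna, the sliding clamp of DNA polymerase, it lay between 0.0259 and 0.0716 for the members. With Tubb4b, a beta tubulin of the G2/M list, it was -0.225 for Ftl1, -0.128 for Fth1 and 0.0812 for Tfrc. With Tmpo, a lamina-associated protein, it was 0.155 for Ftl1, 0.0431 for Fth1 and -0.0241 for Tfrc. With Anp32e, a histone chaperone, it lay between -0.0883 and 0.0166.

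**Figure D5:**
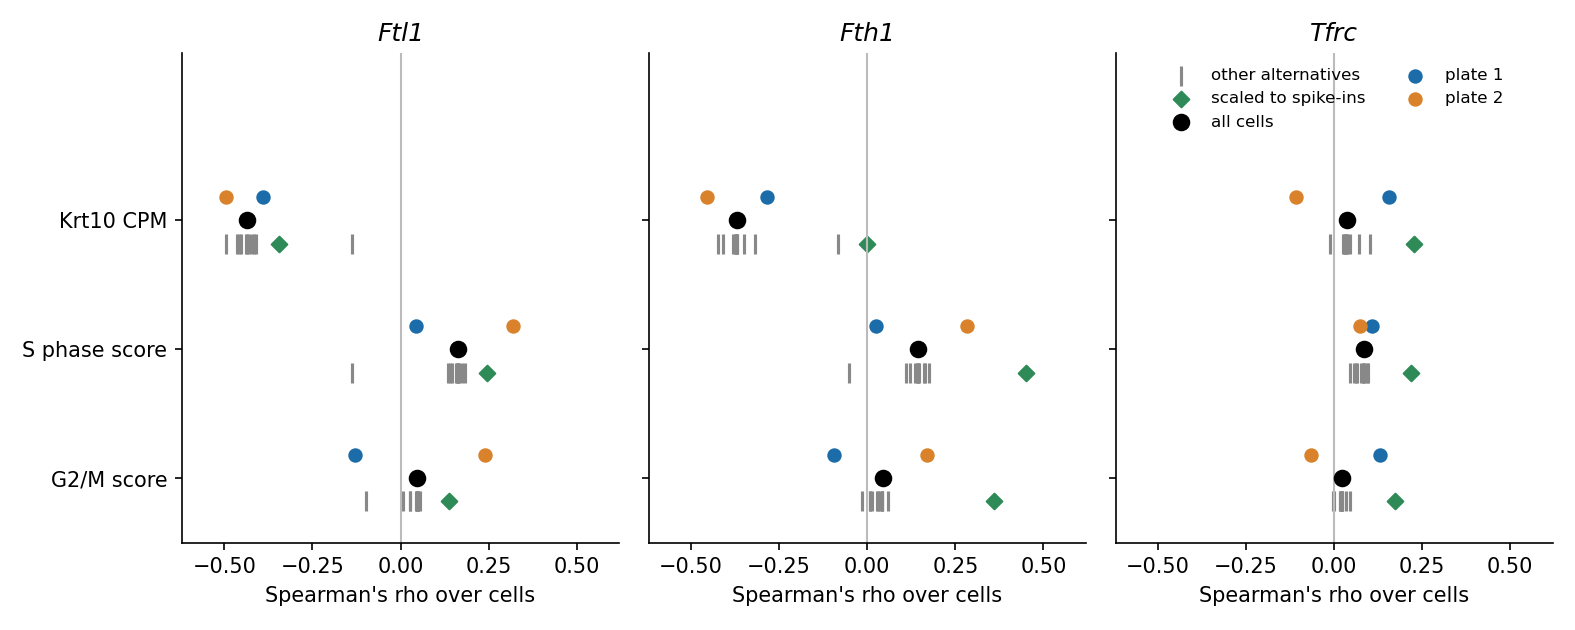
Spearman's rho over cells of each member with Krt10, the S phase score and the G2/M score. Black is the value over all cells, blue and orange the 2 plates, grey ticks the other settings and green the spike-in scale. Ftl1 and Fth1 lie at -0.435 and -0.370 for Krt10, and Fth1 lies at -0.00158 on the spike-in scale.

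The spread over cells was read against spike-in molecules of the same level. The squared coefficient of variation, divided by the spike-in trend and taken on the plate where it was smaller, was 1.97 for Fth1, 1.35 for Tfrc and 0.617 for Ftl1. Among 3685 genes at a mean of 50 CPM or more, these ranked 95, 239 and 2942, around a median of 0.806. Fth1 thus lay above the fitted trend at its level, and Ftl1 lay below it, as did the median gene. The trend rested on 27 spike-ins on plate 1 and 22 on plate 2. Its part that does not depend on level stood at the lower limit of the fit, 0.0001, on both plates. The trend therefore keeps falling with level, which favours a high ratio in abundant genes such as Fth1. The ratio of Ftl1 does not show that its spread is technical. The fitted ratio does not use the order of cells by Krt10.

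The genes most like each member were ranked by rho on the plate nearer to 0, among the 3997 genes that reached 10 CPM in 50% or more of the cells of each plate. The number of such genes depended on the scaling: 35 different genes met the size rule with a member in CPM, and 480 on the spike-in scale. In CPM, Ftl1 met the size rule with 14 genes on the high side (0.35%) and 17 on the low side (0.425%). Its leading genes were Sparc, a secreted matrix protein (0.446), Cavin1 of caveolae (0.464), Dlk2 (0.424), Fth1 (0.425) and Krt14 (0.365). At the other end stood Gltp, a glycolipid carrier (-0.530), Ly6d (-0.478), the lectin gene Lgals3 (-0.483), Krtdap (-0.481) and Jup of cell junctions (-0.436).

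For Fth1 in CPM, 3 genes met the rule on the high side (0.0751%) and 4 on the low side (0.1%). Ftl1 ranked first, followed by the integrin gene Itga3 (0.359), Sparc (0.367), the basal keratin Krt5 (0.375) and the ligand gene Wnt10a (0.332). At the low end stood the desmosomal cadherin Dsg1a (-0.375), Ptgs1 of prostaglandin synthesis (-0.327), Jup (-0.353), the actin bundler Pls3 (-0.372) and Krt10 (-0.370). Sparc and Krt10 were also related to each other, at a rho of -0.476.

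No gene met the rule with Tfrc in either direction in CPM (0%). The highest values were those of Gnai1 (0.245), Ralgps2 (0.216), Nasp (0.201), Acer3 (0.205) and Utp20 (0.198). The lowest were those of the ribosomal protein genes Rpl35 (-0.200) and Rps19 (-0.150), the transcription regulator Hr (-0.249), Atp6v1f of the vacuolar proton pump (-0.165) and Pcyt2 (-0.145). Among the genes likest Tfrc, Ftl1 ranked 1185 and Fth1 3784 of 3997.

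Other genes of iron handling had small values of rho with Krt10. Of 62 genes in 7 lists, 44 passed the filter on low values, and 0 of them met the size rule with Krt10, S phase or G2/M, beside the 0.471% and 0.631% of all genes that met it with Krt10. A count of 0 among 44 is near those shares and says nothing particular of the list. On the spike-in scale, for which no share of all genes is given, 1 of the listed genes met the rule with Krt10. In CPM the median rho of the 44 genes with Krt10 was -0.0315, against -0.00458 over all genes examined. With the S phase score it was 0.0882, against 0.0584 over all genes. Of the 44 genes, 27 lay below 0 with Krt10 (61.4%, against 52.1% of all genes), and the range was -0.214 to 0.127.

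Among the other iron genes, Pcbp1, Hspa9, Glrx5 and Pcbp2 had the highest means. Pcbp1 and Pcbp2, which hand iron to ferritin, averaged 261 ± 190 and 187.4 ± 153.2 CPM (SD over the cells of both plates), with rho to Krt10 of -0.197 and -0.209. Ncoa4, the receptor that brings ferritin to lysosomes, averaged 1.82 CPM and was not examined further. Of the iron regulatory proteins, Aco1 averaged 37.5 CPM and Ireb2 41.9 CPM, and Fbxl5, which marks Ireb2 protein for degradation, 123.4 ± 116.6 CPM (rho to Krt10 -0.0817).

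Transport of iron outside the transferrin receptor was scarcely covered by reads. Slc11a2, which carries iron out of endosomes, averaged 41.1 CPM and Slc39a8, a metal importer, 23.2 CPM. The exporter Slc40a1 had 25 reads in all cells together, and Trf, Tfr2, Cybrd1, Timd2, Ftmt, Hephl1 and Flvcr2 had none. A count of 0 allows a level of up to 0.0388 CPM in the pool, at 3 counts, and does not show absence of the messenger.

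Mitochondrial and heme genes were detected broadly. Hspa9, the mitochondrial chaperone of iron-sulfur assembly, averaged 257 ± 163.4 CPM and Glrx5, a glutaredoxin of the same pathway, 214 ± 152.6 CPM, with rho to Krt10 of 0.0454 and 0.0903. Lyrm4 averaged 134.3 CPM, Nfs1 83.1, Bola3 81.9, Fdx1 70.1 and Iscu 56.3, with rho to Krt10 between -0.189 for Bola3 and 0.127 for Nfs1. Among heme genes the transporter Slc48a1 averaged 132.3 CPM, Urod 103.6, Blvra 98.9, Blvrb 80.5, Fech 76.4, Alad 75.6 and Cpox 60.8, with rho to Krt10 between -0.102 for Blvra and 0.0783 for Blvrb.

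Of the oxidative stress genes, Gpx4, which removes lipid peroxides, averaged 86.6 ± 60.1 CPM and had the lowest rho to Krt10 of the whole iron list, -0.214 (-0.167 on plate 1, -0.186 on plate 2). Nfe2l2, a transcription factor known to act on both ferritin chain genes, averaged 80.8 CPM with a rho of -0.160, and Keap1, its inhibitor, 55.0 CPM with a rho of 0.0281. In CPM, none of these lay as low as Ftl1 and Fth1 (-0.435 and -0.370), and the difference was not tested. On the spike-in scale rho of Fth1 with Krt10 was -0.0016.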

How the data were processed

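Smart-seq2 libraries of sorted cells were examined, 94 cells on each plate. The table holds raw read counts, whole numbers for each gene, as deposited by the authors. Tools and build come from the submitters' processing notes, which list HTSeq 0.6.0, STAR 2.5.2b and cutadapt 1.13 with GRCm38. Their settings, the use of strand and the release of the annotation were not given in the sources used here. Spike-ins (92 rows) stayed out of totals, and 0 columns were left unused. Counts were scaled to CPM and read as log2(CPM + 1). Depth was 79868 to 1093805 counts a cell. Reads were not counted by molecular identifiers. The intervals on shares of cells treat the cells as independent draws.

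Spearman's rho and Pearson's r were computed over all cells and within plates, and a gene was counted at a rho of 0.3 or more, or -0.3 or less, on both plates. List scores are mean z scores over those list genes that reached 10 CPM in 5% or more of the cells. The scans took genes that reached it in 10% or more. No p-value was computed, since no animal is named. The rates of carry-over came from genes with at least 100 reads, of which at least 70% lay in 1 well. Sizes for pooled cells used scran 1.30.0, and other steps Python 3.11.15 with scipy 1.17.1. The scan and the carry-over estimate were run on simulated data. The genes simulated for carry-over had true reads in 1 well only. That run therefore cannot show how far true low expression in other wells raises the estimated rates.

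The named genes were the 3 members, pseudogene rows at 1 CPM, iron genes at a mean of 50 CPM, the 3 most abundant S phase and G2/M genes, Krt10, Krt14, and the 5 highest and 5 lowest by likeness to each member. Iron genes below that level and single cells were added after their values were seen. The members and lists were chosen with earlier results of these data known. Some of the genes that the rule selects are not reported here.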

Additional observations from a re-analysis of the deposited data

How the results depend on the processing

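For 24 results, 224 values were computed under other settings, and 197 of them stayed within the limits set for a change, 27 moved and 0 reversed a called value. A reversal could be counted only where the main rho met the size rule, as for Ftl1 with Krt10 and Ftl1 with Fth1. Other changes of sign, such as that of Fth1 with Tfrc, counted as moved or as within the limits. For rho and ratios the limits widened with the difference between plates, so results on which the plates disagreed stayed within them more easily. Scaling to the spike-in total moved most. On that scale rho of Fth1 was -0.00158 with Krt10, 0.449 with S phase, 0.359 with G2/M and 0.150 with Tfrc, and rho of Tfrc was 0.228 with Krt10, 0.219 with S phase and 0.173 with G2/M. The ratios of the highest to the lowest Krt10 quintile were 0.161 for Ftl1, 0.974 for Fth1 and 2.26 for Tfrc, 1 iron gene met the size rule with Krt10 instead of 0, and 480 genes met it with a member instead of 35. Without the highest Krt10 quintile, a setting added after the data were seen, rho was -0.138 for Ftl1 with Krt10, -0.0828 for Fth1 with Krt10, -0.137 for Ftl1 with S phase, -0.0511 for Fth1 with S phase and 0.287 between the chains. With carried-over reads subtracted the median of Ftl1 in the highest quintile was 0, which leaves no ratio, the quintile ratios were 0.495 for Fth1 and 2.73 for Tfrc, and the ratios to the spike-in trend 0.805, 2.72 and 1.80. Thinned to 79868 counts a cell, the quintile ratios were 0.125 for Ftl1 and 0.508 for Fth1. The ratio of Ftl1 was 0.0980 with pseudogene reads added and 0.101 by the early differentiation score. The cause of these shifts was not tested. No paired analysis was possible because all cells form 1 group without named animals. Depth limits Ftl1 most, at a median of 19.5 reads a cell.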
